A study of Homo sapiens with 6 samples.

Results

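The genes described here are 54 genes of the integrated stress response and of amino acid metabolism: 9 regulators of the ATF4 branch, 13 enzymes of amino acid and one-carbon synthesis, 8 amino acid transporters, 12 cytosolic tRNA synthetases, 6 genes of eIF2 signalling and translation control, and 6 genes of the endoplasmic reticulum (ER) chaperone and unfolded protein response. They were chosen by name, and each was matched to 1 Ensembl identifier of the count table, so they make up 54 of its 62754 genes. RNA-seq libraries came from 3 samples of control cells and 3 samples of FAM60A knockout cells. The cells are HEK293, an adherent line from human embryonic kidney, although the labels also name HEK293T, its derivative that carries the SV40 large T antigen. Knockout cells had received Cas9 with guide RNAs against 3 regions of FAM60A and were kept as a puromycin-selected pool, not as a single clone, whereas control cells are labelled only as controls. Both groups grew in the same serum-containing DMEM, and no stress or starvation treatment is given for either.

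In the integrated stress response, kinases such as PERK (EIF2AK3) and GCN2 (EIF2AK4) phosphorylate the translation factor eIF2, which lowers general protein synthesis while the mRNA of the transcription factor ATF4 is translated more. ATF4 then raises genes for amino acid uptake, amino acid and one-carbon synthesis and the charging of tRNAs, largely through promoter elements that it binds with C/EBP partners. PERK also belongs to the unfolded protein response of the ER, whose ATF6 and XBP1 branches raise chaperone genes through a different element.

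Total counts were 88361827 to 93346824 per library. FAM60A itself, listed under its current symbol SINHCAF, gave 11028, 10165 and 12792 counts among the controls, against 5684, 5793 and 5449 for knockout libraries, so that its RNA was lower in each knockout library than in each control but was still present (log2 fold change -0.85, standard error (SE) 0.11, adjusted p = 0.00863 by edgeR's quasi-likelihood test with Benjamini-Hochberg adjustment; 0.0571 to 0.0736 when any 1 knockout library was left out). All 8 genes of a HEK293 marker list had at least 81 counts in every library, and their summed level was 161 to 185 CPM (counts relative to the TMM-scaled library size) in 5 libraries and 253 in control replicate 3. The leukocyte and hepatocyte markers had at most 9 and 12 counts in any library, and the endothelial markers at most 65. Of the 4 fibroblast markers, COL1A2 had at most 2 counts, DCN had 0, 1 and 1 in the controls against 30 to 33 in the knockout, PDGFRA had 76, 76 and 229 against 222 to 276, and COL1A1 had 1854 to 2526 against 1145 to 1401; DCN was called higher and COL1A1 lower (edgeR adjusted p = 0.0037 and 0.0361). Control replicate 3 stood apart from control replicates 1 and 2, so it is shown separately throughout and each comparison is also given without it. It was nearer to the mean of the knockout libraries than to the mean of the other controls, on the log2 CPM scale, for 58.9% of the 20992 genes tested and for 39 of the 54 members (72.2%). The summed level of the 4 genes CD44, AXL, CAV1 and VIM, which mark mesenchymal cells, was 816 and 830 CPM in control replicates 1 and 2, 380 in control replicate 3 and 347 to 408 in the knockout libraries. This sum was mostly VIM, at 694 and 707, 299, and 252 to 309 CPM, and CAV1 was also lower in control replicate 3 and the knockout, whereas AXL was higher in both (0.391 and 0.427, 1.19, and 0.815 to 1.08 CPM) and CD44 was lowest in control replicate 3 (21.7 CPM) and highest in the knockout (34.8 to 35.9). The part of these markers in the results was not tested. The labels do not say whether the replicates were separate cultures, so p-values measure only the spread between these libraries, which may be technical. In bulk RNA, fewer cells that express a gene and less RNA per cell cannot be told apart.

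Promoter elements known from the integrated stress response and the unfolded protein response can be read directly in the reference sequence. The members were chosen by name for these pathways. Their shares with an element, set beside those of all genes, are therefore descriptions and not a test. In RefSeq promoter windows of GRCh38.p14, which run from 250 bases before to 50 after each annotated start and were found for 45 of the 54 members, the core TGATGNAA of the C/EBP-ATF response element was searched on both strands. It was present in 17 of the 45 members (37.8%), in 9 of 91 other genes of the same pathways (9.89%) and in 1217 of all 27305 genes (4.46%). Sites of 6 of these 17 members are shown. They lie in a glutathione-degrading enzyme, asparagine synthetase, an ATF4 partner, a glutamine transporter, an ER protein and a tRNA synthetase, which are described further on. All except SLC1A5 are the 5 members with the core that were at least 2-fold higher in control replicate 3, so the 6 do not represent the 17. The core was also present in CARS1, GARS1, GOT1, IARS1, MARS1, NARS1, PPP1R15B, SLC1A4, SLC3A2, SLC7A1 and TARS1, whose sites are not shown. The sequences are given on the gene's strand with the match in capitals. A match reading TTGCATCA is the same core on the opposite strand.
CHAC1: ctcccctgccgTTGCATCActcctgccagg
ASNS: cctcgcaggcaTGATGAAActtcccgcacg
CEBPG: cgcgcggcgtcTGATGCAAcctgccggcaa
SLC1A5: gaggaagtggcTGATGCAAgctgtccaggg
HERPUD1: gacgcggcgggTTGCATCAgcccgtgccca
AARS1: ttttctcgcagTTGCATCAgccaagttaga
They lie at chr15:40953251-40953280 on the plus strand, chr7:97872458-97872487 on the minus strand, chr19:33374060-33374089 on the plus strand, chr19:46784893-46784922 on the minus strand, chr16:56931955-56931984 on the plus strand and chr16:70289675-70289704 on the minus strand, in the same order. The matches begin 209, 68, 42, 97, 176 and 187 bases before the annotated starts. A match is a description of the letters and does not show that a factor binds there.

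The ER stress element, CCAAT and CCACG with 9 unspecified bases between them, was present on either strand in 3 of the 45 members (6.67%), which were HSPA5, HSP90B1 and XBP1, and in 25 of all 27305 genes (0.0916%). The members with this element are shown with it because their values are set against those of the ATF4 branch.
HSPA5: cttcaCCAATCGGCGGCCTCCACGacgggg
HSP90B1: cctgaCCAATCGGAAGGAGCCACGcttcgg
XBP1: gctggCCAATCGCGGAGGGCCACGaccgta
They lie at chr9:125241385-125241414 on the minus strand, chr12:103930211-103930240 on the plus strand and chr22:28800597-28800626 on the minus strand, and begin 66, 194 and 52 bases before the starts. HSP90B1 held a further match on the opposite strand, 89 bases before its start. The members ALDH1L2, EIF4EBP1, GPT2, LARS1, PSPH, PYCR1, SHMT2, SLC7A3 and YARS1 were not in the promoter table.

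For 29 of the 54 genes, control replicate 3 was the highest library and the mean of the knockout libraries lay between it and control replicates 1 and 2, an order that 3524 of the 20992 genes tested showed. Control replicate 3 was the highest of the 6 libraries for 37 members (68.5%), against 26.4% of all genes tested. It was the lowest for 5 members (9.26%), against 5264 of the 20992 genes tested. It lay at least 2-fold above the mean of control replicates 1 and 2 for 24 members (44.4%; 15.2% of all genes) and at least 2-fold below it for 1, PPP1R15A (7.79% of all genes). The median difference of control replicate 3 from control replicates 1 and 2 was 0.70 on the log2 CPM scale over the members and 0.01 over all genes. That of the mean of the knockout libraries was 0.25 over the members and 0.04 over all genes (0.13 and -0.07 when scaled by library size alone). In either direction, the knockout mean lay between the other controls and control replicate 3 for 33 members, and it did so for 20 of the 24 that were at least 2-fold higher in control replicate 3. Over all genes tested it did so for 8210 of 20992, and for 2209 of the 3191 that were at least 2-fold higher in control replicate 3. This position was therefore common among all genes with such a rise. The plot of all members by library shows this order.

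**Figure D1:**
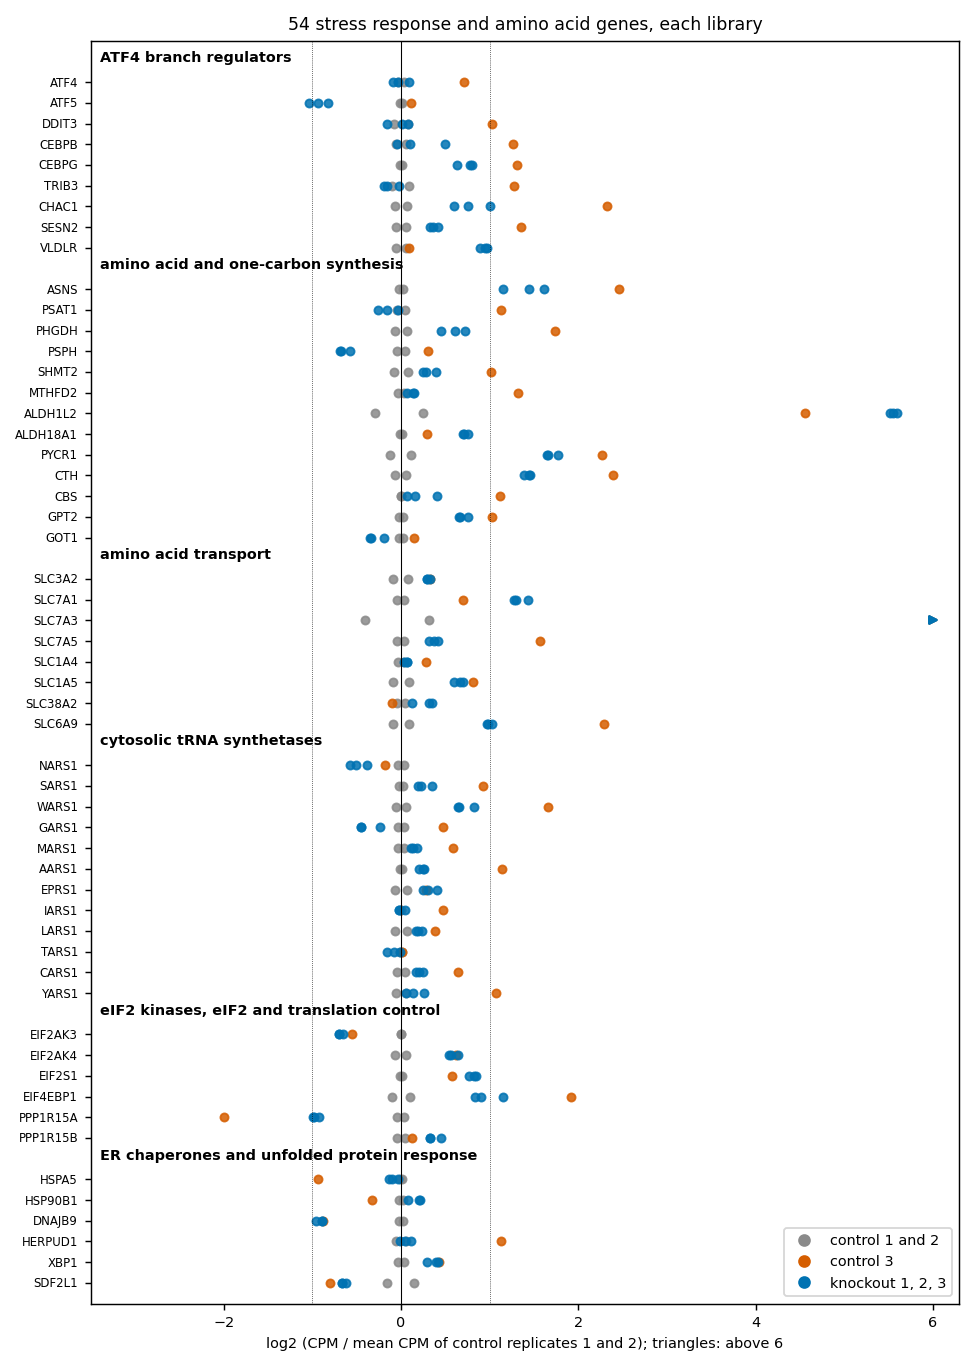
Each row is 1 of the 54 genes, grouped by role, and each point 1 library; the horizontal axis gives log2 of normalized CPM over the mean CPM of control replicates 1 and 2, with dotted lines at 2-fold and triangles for values above 6. Control replicate 3 is the rightmost point for 37 of the 54 genes and the leftmost for 5, HSPA5, HSP90B1, SDF2L1, PPP1R15A and SLC38A2.

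Against all 3 controls, few of these genes were called as different in the knockout cells, as was so for all genes tested. A gene that was not called is not thereby shown to be unchanged. By edgeR's quasi-likelihood test, with Benjamini-Hochberg adjustment over all genes, 6 of the 54 members passed an adjusted p of 0.05 (11.1%), against 16.6% of all genes tested. Higher in the knockout were SLC7A1, VLDLR and ALDH18A1 (7.96% of all genes were called higher), and lower were ATF5, PSPH and NARS1 (8.67% of all genes were called lower). Of these 6, SLC7A1 alone also changed at least 2-fold, and 7.06% of all genes were called at that size. The median log2 fold change was -0.10 over the members and -0.01 over all genes. Knockout and control libraries did not overlap for 16 members (29.6%), 8 in each direction, against 41.6% of all genes. No member was called when knockout replicate 1 or knockout replicate 3 was left out (smallest edgeR adjusted p = 0.0535 and 0.0509, with 10 and 9 members at an unadjusted p under 0.05), and 3, 2 and 2 were called without control replicate 1, control replicate 2 or knockout replicate 2. Few of all genes were called in these fits either. The counts were 167 of 21873 without knockout replicate 1 and 189 of 21736 without knockout replicate 3. They were 1049 of 21470, 796 of 21462 and 503 of 21820 without control replicate 1, control replicate 2 or knockout replicate 2.

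Without control replicate 3, 38 members were called (70.4%; 65.6% of all genes), 29 of them higher in the knockout (53.7%; 32.4% of all genes) and 9 lower (16.7%; 33.2% of all genes). The 6 members called against all 3 controls were among them. The other 16 were not called. Called at 2-fold or more were 6 members (11.1%; 22.9% of all genes), which were SLC7A3, ALDH1L2, PYCR1, CTH, ASNS and SLC7A1, and each of these was higher in the knockout. Control replicates 1 and 2 did not overlap with the knockout libraries for 46 members (85.2%; 75.5% of all genes). The plot of fold changes sets both fits side by side.

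**Figure D2:**
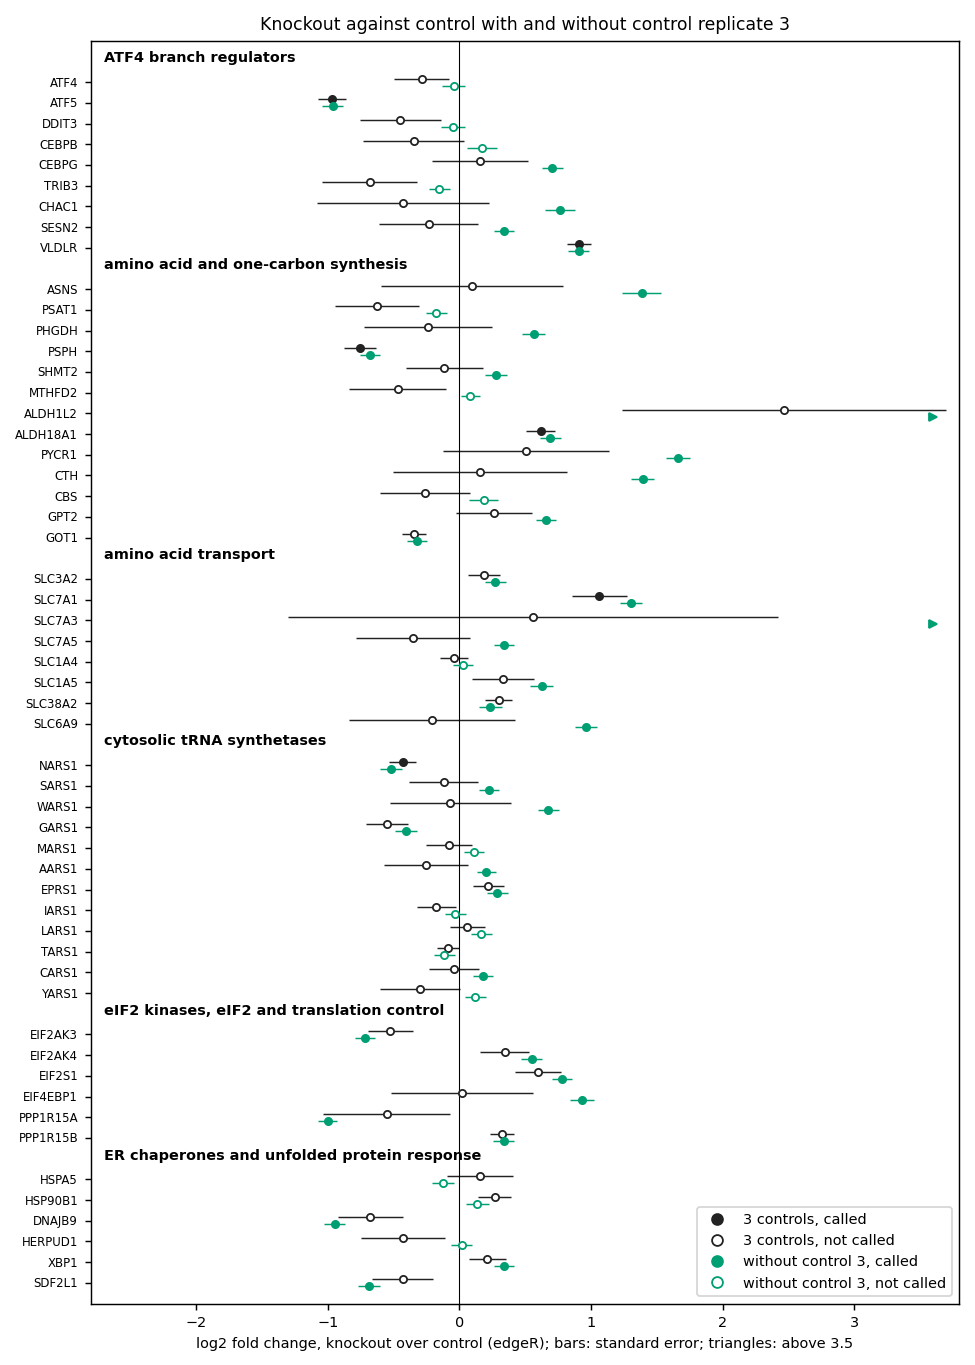
Points give edgeR's log2 fold change of knockout over control for each of the 54 genes, with bars for the standard error; dark points use all 3 controls, green points leave out control replicate 3, filled points passed an adjusted p of 0.05 and triangles lie above 3.5. The dark bars are long wherever control replicate 3 was far from the other controls, and 6 dark points but 38 green ones are filled.

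Of the 9 regulators, 4, ATF4, DDIT3, TRIB3 and CEBPB, were high in control replicate 3 alone, 3, CHAC1, CEBPG and SESN2, were highest there and intermediate in the knockout, and 2, ATF5 and VLDLR, changed in the knockout against all controls. ATF4 gave 57783, 59913 and 95954 counts for control replicates 1, 2 and 3, against 49966, 56795 and 50471 for knockout libraries. Only control replicate 3 was high, and after scaling the knockout libraries, at 571 to 647 CPM, overlapped with the other controls at 594 and 624. The log2 fold change was -0.29 (SE 0.21, edgeR adjusted p = 0.377), and -0.04 (SE 0.08) without control replicate 3. ATF4 had the highest level per length of all members in control replicates 1 and 2, at 429 CPM per kilobase of transcript, next to HSP90B1 with 426. DDIT3, which encodes the stress-induced factor CHOP, gave 1251, 1376 and 2684 counts among the controls, against 1158, 1263 and 1074 after knockout. TRIB3, a pseudokinase that is induced by ATF4 and CHOP and restrains them, gave 3788, 4268 and 9768 counts among the controls, against 3157, 3612 and 3219 after knockout. Both repeated the order of ATF4, with control replicate 3 alone high, and neither was called with or without that library.

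CHAC1, which degrades glutathione, gave 550, 598 and 2874 counts among the controls, against 848, 1045 and 794 after knockout. Its knockout libraries lay above control replicates 1 and 2 and below control replicate 3. The log2 fold change was -0.43 (SE 0.65, edgeR adjusted p = 0.680) with all controls and 0.77 (SE 0.11) without control replicate 3, so its sign depended on that library. CEBPG, a dimerization partner of ATF4, gave 11040, 11125 and 27507 counts among the controls, against 15709 to 17513 after knockout, and SESN2, a leucine sensor that restrains mTORC1, gave 5112, 5431 and 13466 counts among the controls, against 5908 to 6407 after knockout. Both showed the same intermediate position as CHAC1. Their log2 fold changes without control replicate 3 were 0.71 and 0.34, and both were then called. CEBPB, another C/EBP factor, gave 1090, 1162 and 2695 counts among the controls, against 954, 1444 and 1102 after knockout, and was not called in either fit.

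ATF5 and VLDLR followed a different pattern, in which the 3 controls were alike. ATF5, a factor related to ATF4, gave 2748, 2681 and 2923 counts among the controls, against 1156, 1389 and 1291 after knockout. All knockout libraries lay far below all controls. Its level fell to 14.7 ± 1.06 CPM (SD, n = 3) from 28.8 ± 1.26 CPM (SD, n = 3) in the controls, giving a log2 fold change of -0.97 (SE 0.11, adjusted p = 0.00608 by edgeR's quasi-likelihood test; at most 0.0597 over 13 alternatives; of the fits without 1 library, the call was lost in those without knockout replicate 1 or 3). VLDLR, a lipoprotein receptor known to be induced by ATF4, gave 2396, 2186 and 2435 counts among the controls, against 3918, 3856 and 4031 after knockout. It rose from 24.2 ± 1.28 to 45.4 ± 1.31 CPM (SD, n = 3), giving a log2 fold change of 0.91 (SE 0.09, edgeR adjusted p = 0.00482; at most 0.0535 over the alternatives, with the call lost in those without knockout replicate 1 or 3). Without control replicate 3 both changes were of the same size, at -0.96 and 0.91 on the log2 scale. ATF5 lies on chromosome 19 of GRCh37 from 50431959 to 50437192 and VLDLR on chromosome 9 from 2621182 to 2660056.

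**Figure D3:**
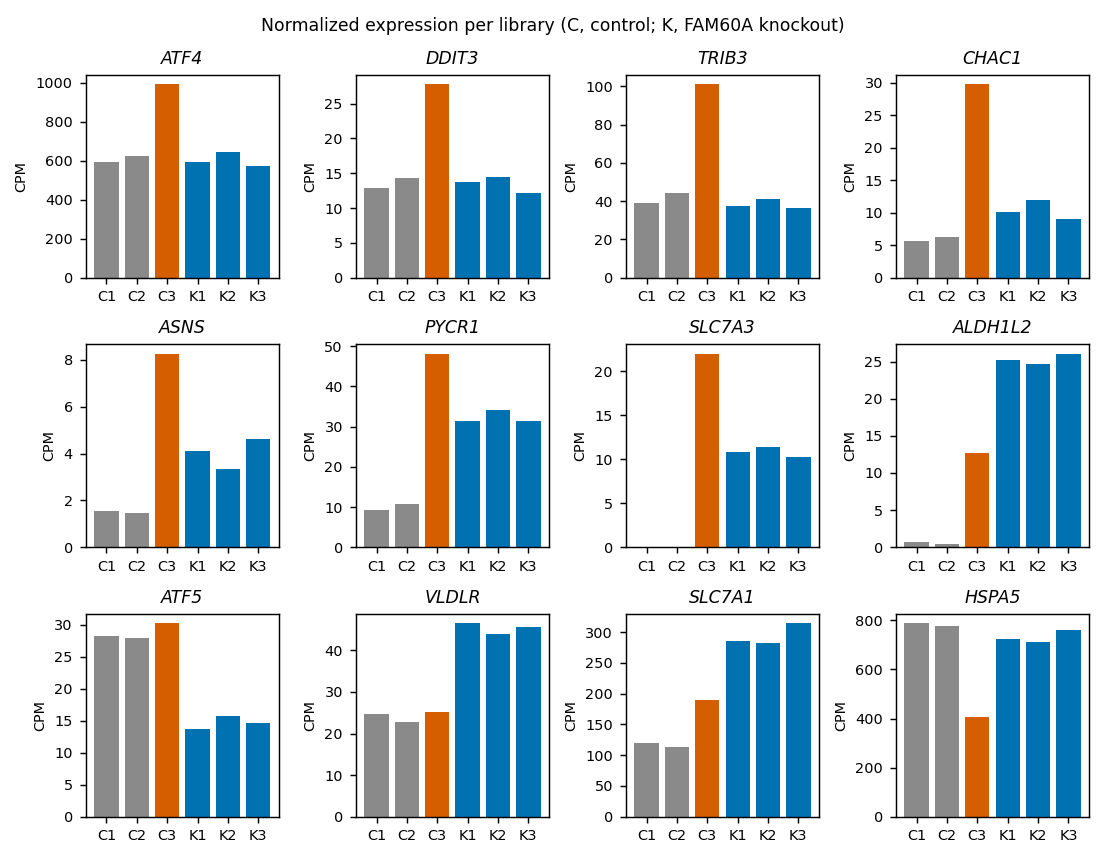
Bars give normalized CPM in each library (C1 to C3, control replicates 1 to 3; K1 to K3, FAM60A knockout replicates 1 to 3) for 12 members, each with its own axis from 0. Control replicate 3 is the highest bar for ATF4, DDIT3, TRIB3, CHAC1, ASNS, PYCR1, SLC7A3 and, by little, ATF5, and the lowest for HSPA5. ATF5, VLDLR, SLC7A1 and ALDH1L2 separate all knockout from all control libraries.

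Among the enzymes of amino acid and one-carbon synthesis, all 13 were higher in control replicate 3 than in control replicates 1 and 2, 10 of them at least 2-fold. ASNS, which makes asparagine, gave 149, 142 and 798 counts among the controls, against 346, 293 and 407 after knockout. The knockout libraries lay above the low controls and below control replicate 3, and the log2 fold change was 0.10 (SE 0.69, edgeR adjusted p = 0.935) with all controls and 1.39 (SE 0.15) without that library. The transcribed copy ASNSP1 gave 9, 23 and 166 counts among the controls, against 59 to 75 after knockout, so the split of reads between it and ASNS is uncertain. PHGDH, the first enzyme of serine synthesis, gave 18935, 20459 and 65741 counts among the controls, against 26136, 29438 and 24629 after knockout. It held the same intermediate position, and its log2 fold change was -0.23 (SE 0.49, edgeR adjusted p = 0.765), or 0.56 (SE 0.09) without control replicate 3.

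The later enzymes of serine synthesis gave other values. PSAT1, the second enzyme, gave 15029, 15907 and 33818 counts among the controls, against 12120, 13741 and 11845 after knockout, and was not called in either fit (log2 fold change -0.62, SE 0.32, edgeR adjusted p = 0.219). PSPH, the last enzyme, gave 2979, 3124 and 3767 counts among the controls, against 1646, 1858 and 1744 after knockout. Every knockout library of PSPH lay below every control. It fell from 34.1 ± 4.38 to 20.2 ± 0.89 CPM (SD, n = 3), giving a log2 fold change of -0.76 (SE 0.12, edgeR adjusted p = 0.0143; at most 0.100 over the alternatives, of the fits without 1 library, the call was lost in those without control replicate 2 or any knockout library). Without control replicate 3 the log2 fold changes of PHGDH, PSAT1 and PSPH, which act in this order, were 0.56, -0.18 and -0.68, with PHGDH called higher, PSPH lower and PSAT1 not called.

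ALDH1L2, the mitochondrial enzyme that oxidizes formyltetrahydrofolate, was the only synthesis gene that was far higher in control replicate 3 and higher still in the knockout. It gave 62, 42 and 1223 counts among the controls, against 2120, 2164 and 2302 after knockout. The groups did not overlap, the controls differed widely among themselves, and the log2 fold change was 2.47 (SE 1.23, edgeR adjusted p = 0.208). Against control replicates 1 and 2, the summed knockout counts were 47.0-fold higher (95% interval 38.8 to 57.7 for counting error only) and control replicate 3 was 23.5-fold higher (19.2 to 29.0). The mitochondrial folate enzymes SHMT2 and MTHFD2 were highest in control replicate 3. SHMT2 gave 32588, 35922 and 69496 counts among the controls, against 36325 to 40992 after knockout, and MTHFD2 gave 15468, 14560 and 37470 among the controls, against 14383 to 14941 after knockout. Leaving out control replicate 3, SHMT2 had a log2 fold change of 0.28 and was called, and MTHFD2 had one of 0.08 and was not.

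Both proline enzymes were called higher when control replicate 3 was left out, and ALDH18A1 also with it. ALDH18A1, which carries out the first step from glutamate, gave 19844, 20038 and 24365 counts among the controls, against 28130, 29647 and 30850 after knockout. All knockout libraries lay above all controls, and the level rose from 222 ± 26.6 to 340 ± 7.96 CPM (SD, n = 3; log2 fold change 0.62, SE 0.11, edgeR adjusted p = 0.0179, at most 0.0983 over the alternatives; of the fits without 1 library, only that without control replicate 3 kept the call). PYCR1, which completes proline, gave 889, 1037 and 4648 counts among the controls, against 2647, 2985 and 2761 after knockout. Here control replicate 3 was the highest library, and the log2 fold change was 0.51 (SE 0.63, edgeR adjusted p = 0.605), or 1.66 (SE 0.09) without it.

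In sulphur amino acid metabolism, CTH, which makes cysteine from cystathionine, gave 793, 718 and 3957 counts among the controls, against 1798, 1859 and 1810 after knockout. It was intermediate in the knockout, with a log2 fold change of 1.40 (SE 0.09) without control replicate 3 and 0.16 (SE 0.66) with it. CBS, which acts before CTH, gave 495, 487 and 1066 counts among the controls, against 471 to 567 after knockout, and was not called in either fit. Of the transaminases, GPT2 gave 6538, 6639 and 13389 counts among the controls, against 9051 to 10094 after knockout and was called higher without control replicate 3 (0.66 on the log2 scale). GOT1 gave 8232, 8411 and 9224 counts among the controls, against 5722 to 6606 after knockout, lower in each knockout library than in each control, and missed the threshold with all controls (log2 fold change -0.34, edgeR adjusted p = 0.0526) and passed it without control replicate 3 (-0.32).

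Of the 8 amino acid transporters, SLC7A1 was called higher against all controls, and 7, all except SLC1A4, were called higher when control replicate 3 was left out, as were 32.4% of all genes. SLC7A1, the cationic amino acid transporter CAT1, gave 11622, 10868 and 18256 counts among the controls, against 23989, 24738 and 27765 after knockout. Every knockout library lay above control replicate 3, which in turn lay above the other controls. The level rose from 141 ± 42.0 to 294 ± 18.0 CPM (SD, n = 3), giving a log2 fold change of 1.06 (SE 0.21, edgeR adjusted p = 0.0229; at most 0.109 over the alternatives; of the fits without 1 library, only that without control replicate 3 kept the call) and of 1.31 without control replicate 3. SLC7A3, the related transporter CAT3, gave 5, 3 and 2123 counts among the controls, against 912, 1002 and 908 after knockout. It was nearly undetected in control replicates 1 and 2 and clearly present in the other 4 libraries. Summed counts in the knockout were 262-fold those in control replicates 1 and 2 (95% interval 133 to 608 for counting error only), and those in control replicate 3 were 531-fold (269 to 1231). With all controls the log2 fold change was 0.56 with an SE of 1.86 (edgeR adjusted p = 0.856).

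The heterodimeric leucine transporter is formed by SLC3A2, its heavy chain, and SLC7A5, a light chain, which differed in control replicate 3. SLC3A2 gave 12865, 14325 and 17055 counts among the controls, against 14531 to 15569 after knockout, while SLC7A5 gave 6184, 6455 and 18710 among the controls, against 6878 to 7665 after knockout. In control replicate 3, SLC7A5 had 2.96 times and SLC3A2 1.26 times the level of the other controls. Their log2 fold changes without that library were 0.34 and 0.27, both called. SLC6A9, the glycine transporter GLYT1, gave 1127, 1263 and 5843 counts among the controls, against 2043 to 2212 after knockout, with a log2 fold change of 0.96 without control replicate 3 and -0.21 (SE 0.63) with it. SLC1A5, the glutamine carrier ASCT2, gave 29663, 33124 and 55070 counts among the controls, against 41509 to 46435 after knockout (log2 fold change 0.63 without control replicate 3). SLC1A4, a carrier of small neutral amino acids, gave 4716, 4911 and 5848 counts among the controls, against 4305 to 4611 after knockout and was not called in either fit. SLC38A2, the transporter SNAT2, was the only transporter that was lowest in control replicate 3, with 31841, 29372 and 28453 counts in the controls and 30176 to 35744 in the knockout, and was called without control replicate 3 alone (log2 fold change 0.24).

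Of the 12 cytosolic tRNA synthetases, which attach amino acids to their tRNAs, 9 were highest in control replicate 3, and 3 of these, WARS1, AARS1 and YARS1, were at least 2-fold above control replicates 1 and 2. WARS1 gave 8630, 9279 and 28158 counts among the controls, against 12280 to 14406 after knockout, AARS1 gave 14213, 14190 and 31359 among the controls, against 14285 to 15419 after knockout, and YARS1 gave 15909, 17023 and 34513 among the controls, against 14945 to 17912 after knockout. WARS1 and AARS1 were called higher without control replicate 3 (0.68 and 0.21 on the log2 scale), as were SARS1, EPRS1 and CARS1 (0.18 to 0.29). The 5 members MARS1, IARS1, LARS1, TARS1 and YARS1 were not called in either fit, with log2 fold changes between -0.11 and 0.17 without control replicate 3. Among the 8 synthetases other than these 3 and NARS1, control replicate 3 ranged from 1.01 times the level of the other controls for TARS1 to 1.90 times for SARS1.

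NARS1, the asparaginyl-tRNA synthetase, was lower in the knockout. It gave 35184, 33174 and 30056 counts among the controls, against 22800, 21863 and 20929 after knockout. Each knockout library lay below each control, and control replicate 3 was the lowest control. Its level fell from 339 ± 25.9 to 252 ± 17.1 CPM (SD, n = 3), giving a log2 fold change of -0.43 (SE 0.10, edgeR adjusted p = 0.0380; at most 0.170 over the alternatives; of the fits without 1 library, only that without control replicate 3 kept the call, and it was lost without the filter on low counts). GARS1 gave 13119, 13553 and 18496 counts among the controls, against 8527, 10287 and 8916 after knockout. It was also lower in each knockout library than in each control, missed the threshold with all controls (log2 fold change -0.55, edgeR adjusted p = 0.0613) and passed it without control replicate 3 (-0.41). Over the 12 synthetases, the knockout mean had a median difference of 0.18 from control replicates 1 and 2 on the log2 CPM scale (0.06 when scaled by library size alone).

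None of the 6 genes of eIF2 signalling and translation control passed the threshold with all controls, where 16.6% of all genes did, and each passed it without control replicate 3, where 65.6% of all genes did. EIF2S1, the alpha subunit of eIF2 that the kinases phosphorylate, gave 13119, 12712 and 19179 counts among the controls, against 20298, 20780 and 20058 after knockout. All knockout libraries lay above all controls (log2 fold change 0.60, SE 0.17, edgeR adjusted p = 0.0615), and the value without control replicate 3 was 0.78. The kinases differed in direction. EIF2AK3 (PERK) gave 2738, 2706 and 1856 counts among the controls, against 1505 to 1529 after knockout, and EIF2AK4 (GCN2) gave 5225, 4738 and 7637 among the controls, against 6395 to 7049 after knockout. With control replicate 3 left out, PERK was lower (-0.72) and GCN2 higher (0.55), and for each control replicate 3 was nearer to the knockout libraries than to the other controls.

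PPP1R15A, the stress-induced subunit GADD34 that directs phosphatase to eIF2, was the one member at least 2-fold lower in control replicate 3. It gave 8120, 8478 and 2076 counts among the controls, against 3622, 3967 and 3842 after knockout. The knockout libraries again lay between control replicate 3 and the other controls, but here below the latter (log2 fold change -0.55, SE 0.48, edgeR adjusted p = 0.456; -0.999 on leaving out control replicate 3). GADD34 is itself induced by the pathway, and it was low in control replicate 3, where TRIB3 and CHAC1 were high. PPP1R15B, the constitutive subunit, gave 6588, 6126 and 6907 counts among the controls, against 6927 to 7914 after knockout (log2 fold change 0.33, edgeR adjusted p = 0.0538; 0.34 on leaving out control replicate 3). EIF4EBP1, which encodes the translation repressor 4E-BP1, gave 4049, 4606 and 16321 counts among the controls, against 7031, 8697 and 7032 after knockout, with a log2 fold change of 0.02 (SE 0.54) with all controls and 0.93 without control replicate 3.

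The ER chaperone group was the only one with a negative median in control replicate 3, at -0.56 against control replicates 1 and 2, where the other groups had medians of 0.35 to 1.26. HSPA5, the main ER chaperone BiP, gave 76628, 74474 and 39337 counts among the controls, against 61123, 62614 and 67361 after knockout. Control replicate 3 was low, and the knockout libraries lay below the other controls in counts and, after scaling, at 714 to 763 CPM against 788 and 775. The log2 fold change was 0.16 (SE 0.25, edgeR adjusted p = 0.688), and -0.12 without control replicate 3, not called. HSP90B1, the chaperone GRP94, gave 116821, 112195 and 91035 counts among the controls, against 109754 to 120203 after knockout, and was not called in either fit. XBP1, the transcription factor of the IRE1 branch, gave 9310, 9575 and 12714 counts among the controls, against 10782, 11475 and 10570 after knockout, and was called without control replicate 3 alone (log2 fold change 0.34).

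Of the remaining ER genes, DNAJB9 and SDF2L1, both co-factors of BiP, were lower in control replicate 3 and in the knockout libraries than in control replicates 1 and 2. DNAJB9 gave 2323, 2221 and 1232 counts among the controls, against 1066, 1058 and 1123 after knockout, and SDF2L1 gave 5331, 6484 and 3387 among the controls, against 3246, 3489 and 3394 after knockout. When control replicate 3 was left out they were called lower, with log2 fold changes of -0.94 and -0.68. HERPUD1, a membrane protein of ER-associated degradation, gave 2893, 3104 and 6541 counts among the controls, against 2707 to 2939 after knockout. It was the single ER gene at least 2-fold above the other controls in control replicate 3, and the only one of the 6 whose promoter window held the C/EBP-ATF core.

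Promoter letters and levels can be set side by side. Of the 17 members with the C/EBP-ATF core, 5 were at least 2-fold higher in control replicate 3 than in control replicates 1 and 2, which were CHAC1, ASNS, CEBPG, AARS1 and HERPUD1, and of the 28 without it in these windows 12 were. The median log2 difference of control replicate 3 was 0.59 with the core and 0.66 without it. Over all genes tested it was 0.06 for the 377 genes with the core and -0.01 for the 12783 without. The 19 tested genes with an ER stress element, 3 members and 5 other pathway genes among them, had a median of -0.28. For the 13141 without it the median was -0.007. None of the 19 was at least 2-fold higher in control replicate 3, against 1946 of the 13141. HSPA5 and HSP90B1, with the element, were lower in control replicate 3 (0.521 and 0.795 times the level of the other controls), and XBP1, also with it, was higher (1.35 times).

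The other genes of these pathways, 115 in number, were examined in the same fit to see how far the pattern extended. Of the 114 tested, 25 passed the threshold with all controls, 17 higher and 8 lower, where 16.6% of all genes were called, 7.96% higher and 8.67% lower. The 5 with the largest changes were SLC38A3, SLC1A1, SLC6A15, GLDC and DERL1. SLC38A3, a glutamine transporter, gave 182, 188 and 517 counts among the controls, against 42, 52 and 48 after knockout (log2 fold change -2.49, SE 0.47, edgeR adjusted p = 0.0204; lost when any 1 knockout library was left out, at most 0.115). SLC1A1, a glutamate transporter, gave 1261, 1230 and 1758 counts among the controls, against 4291, 4304 and 4610 after knockout (1.79, SE 0.16, edgeR adjusted p = 0.0037), and was called in each of the 13 alternatives. SLC6A15, a transporter of neutral amino acids, had a log2 fold change of 1.11, GLDC of the glycine cleavage system one of 1.02, and DERL1 of ER-associated degradation one of 0.99. The calls of these 3 were lost without knockout replicate 1, and those of SLC6A15 and GLDC also without knockout replicate 3. Each of these 5 genes had knockout libraries outside the range of all controls.

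SLC7A11, ATF3 and DDIT4, which respond to the same pathway, did not pass the threshold with all controls. SLC7A11, the cystine transporter, gave 1070, 909 and 4848 counts among the controls, against 2555, 2414 and 2855 after knockout, the same intermediate order as CTH (log2 fold change 0.35, edgeR adjusted p = 0.730; 1.52 on leaving out control replicate 3). DDIT4, the mTORC1 inhibitor REDD1, gave 2380, 2702 and 26982 counts among the controls, against 16076, 18871 and 16138 after knockout (0.83, SE 0.93; 2.87 without control replicate 3). ATF3, a stress-induced transcription factor, gave 15761, 16851 and 7825 counts among the controls, against 5450, 6384 and 5525 after knockout, the same direction as PPP1R15A (log2 fold change -1.07, edgeR adjusted p = 0.0504; -1.37 on leaving out control replicate 3). Without control replicate 3, 98 of the 114 genes were called (65.6% of all genes), 54 higher and 44 lower, whereas 29 of the 38 members called were higher. In control replicate 3, 21 of the 114 genes were at least 2-fold above the other controls (15.2% of all genes), and the median difference was 0.12 on the log2 scale. By group, that median was 0.32 for the other stress response genes, 0.27 for the other amino acid enzymes, 0.50 for the other transporters, -0.20 for the other cytosolic synthetases and their scaffold, 0.12 for the mitochondrial synthetases and -0.23 for the other unfolded protein response genes.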

How the data were processed

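RNA-seq libraries of 3 control and 3 FAM60A knockout samples of HEK293 cells were grouped by their titles. The authors deposited whole-number counts per Ensembl gene for 62754 genes, without normalization. Their methods describe poly(A)-selected, strand-specific paired-end libraries, trimming with Trimmomatic and quantification with Salmon on hg38, whereas the submitters' processing notes name STAR 2.7.10b and featureCounts 2.0.0 and the extraction text names hg19. Which of these tools gave the deposited counts, and the annotation release, are not given in the sources used here. Reads of genes with near-identical copies, such as ASNS and its copy ASNSP1, can be split between them. For CBS, no copy was found by name in the count table.

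The counts were fitted with edgeR 4.0.16 in R 4.3.3, with TMM scaling, filterByExpr at a minimum count of 10 and the quasi-likelihood F-test, two-sided (glmQLFit, glmQLFTest), and p-values were adjusted by Benjamini-Hochberg over the 20992 genes tested. All 54 members passed the filter. A gene was called at an adjusted p of at most 0.05, and a further count took only log2 fold changes of at least 1 in size. Log2 CPM used a prior count of 2. Each SE was the absolute log2 fold change divided by the square root of the quasi-likelihood F statistic. It was not taken from the model's coefficients. With 3 libraries against 3, a permutation test of 1 gene cannot give a p below 0.1, so none was run. Intervals of count ratios are exact binomial and cover counting error only. Levels per length used the canonical transcript of each gene in the GENCODE annotation lifted to GRCh37, which also gave the gene positions. Promoter windows and their letters are from RefSeq on GRCh38.p14. The fit was tested on simulated data.

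Alternatives were DESeq2 1.42.0, limma-voom (limma 3.58.1), library size alone, RLE scaling, no filter, at least 10 counts in every library, the replicate number as a block, and each library left out in turn. Those for the count of members highest in control replicate 3 were added after seeing the data. The members and gene lists were chosen with earlier results of these data known. The rule for named genes covered the members called, ATF4, DDIT3, TRIB3, CHAC1, ASNS, PSAT1, PHGDH, HSPA5, XBP1, SLC7A11, ATF3, DDIT4 and the 5 other pathway genes called with the largest log2 fold changes. Counts of the remaining members are given to account for each, and those described at length were chosen after their values were seen. Tables were handled in Python 3.11.15 with pandas 2.3.3 and numpy 2.4.6, and figures drawn with matplotlib 3.10.9.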

Additional observations from a re-analysis of the deposited data

How the results depend on the processing

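The count of members called, 6 in the reported fit, was 12 with DESeq2 and 1, VLDLR, with the replicate block (adjusted p of the other 5 between 0.0506 and 0.0817), and it was 0 to 38 when 1 library was left out, with 38 without control replicate 3. With library size alone, RLE scaling, limma-voom, no filter or at least 10 counts in every library it was 5 to 9. All 6 were called by DESeq2, limma-voom, RLE scaling and library size alone, and 5 of them without a filter. The calls over all genes moved with these settings too. Of 20992 genes tested, 3491 were called in the reported fit, 5581 with DESeq2 and 407 with the replicate block. When 1 library was left out, the calls ran from 167 of 21873 genes to 14221 of 21686, the latter without control replicate 3. Members past a 2-fold change numbered 1 in the reported fit, 2 with limma-voom, 0 with the replicate block (12 members at an unadjusted p under 0.05) and 0 to 6 when 1 library was left out. Of the other pathway genes, 25 were called in the reported fit, 47 with DESeq2, 4 with the replicate block and 1 to 98 when 1 library was left out. Members without overlap between the groups numbered 16 to 46 when 1 library was left out. Over all genes tested, 41.6% did not overlap with every library kept and 75.5% without control replicate 3. Members for which control replicate 3 was nearer to the knockout numbered 36 and 38, and those for which it was highest 38 and 37, with library size alone and RLE scaling.

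Library size alone moved the median log2 fold change of all genes to -0.12 from -0.01 and the calls to 1235 higher and 2668 lower, from 1671 and 1820. With it the signs of ASNS (-0.00894), LARS1 (-0.0497) and EIF4EBP1 (-0.0869) turned. Limma-voom turned CHAC1 (0.0139), PHGDH (0.0136), SLC6A9 (0.23) and WARS1 (0.16), and the replicate block turned CHAC1 (0.0607), PHGDH (0.0354), SLC6A9 (0.26) and WARS1 (0.17). Same-numbered control and knockout libraries had correlations of their deviations of 0.0101, 0.0306 and -0.0362, so the numbers were not taken to pair them.

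Leaving out 1 library turned the sign of further log2 fold changes, with ranges of -0.60 to 0.17 for CEBPB, -0.0884 to 0.71 for CEBPG, -0.82 to 0.77 for CHAC1, -0.50 to 0.34 for SESN2, -0.29 to 1.39 for ASNS, -0.555 to 0.56 for PHGDH, -0.34 to 0.28 for SHMT2, -0.70 to 0.0848 for MTHFD2, -0.23 to 1.40 for CTH and -0.47 to 0.18 for CBS. Among transporters the ranges were -0.0326 to 7.96 for SLC7A3, -0.64 to 0.34 for SLC7A5, -0.13 to 0.0276 for SLC1A4, -0.60 to 0.96 for SLC6A9 and -0.0266 to 1.52 for SLC7A11. Among synthetases they were -0.31 to 0.23 for SARS1, -0.38 to 0.68 for WARS1, -0.22 to 0.11 for MARS1, -0.47 to 0.21 for AARS1, -0.0352 to 0.17 for LARS1, -0.19 to 0.18 for CARS1 and -0.52 to 0.12 for YARS1. For EIF4EBP1, HSPA5 and HERPUD1 they were -0.33 to 0.93, -0.12 to 0.29 and -0.66 to 0.0176. The cause was not tested. Intervals for counting error were computed only for SLC7A3 and ALDH1L2, so the part of counting error in the other values was not tested.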
